A study of Mus musculus with 33 samples.

Results

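The 10 genes described here encode the D cyclins (Ccnd1, Ccnd2, Ccnd3), their kinase partners (Cdk4, Cdk6), cyclin E1 (Ccne1), a pair of CDK inhibitors (Cdkn1b and Cdkn2c), the retinoblastoma protein (Rb1) and the transcription factor E2f1. They were taken by symbol from 47729 genes in the count tables, and all 10 were found in every library. The cells were retinal progenitor cells from C57BL/6J mouse retina at embryonic day 14, kept in vitro and sequenced in bulk, with 3 libraries in each of 11 groups (33 libraries). At day 0 the groups were untreated cells, cone primed cells given COCO protein (also named Dand5, a secreted protein that blocks several developmental signalling ligands) and rod primed cells given taurine plus retinoic acid. At days 5, 12, 21 and 35 there were cone induced cultures with COCO and rod induced cultures with taurine plus retinoic acid. No untreated cultures are among the later groups, so the later days compare cone with rod conditions, or each with its own primed cells. The labels do not say whether replicates are separate cultures or animals, so p-values measure the spread between these libraries, which may be technical.

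In G1, the phase before DNA replication, D cyclins bind Cdk4 or Cdk6 and the kinase phosphorylates the retinoblastoma protein, which then releases E2F factors that switch on S phase genes. Cyclin E1 acts with Cdk2 late in G1, Cdkn1b (p27) restrains cyclin E and Cdk2, and Cdkn2c (p18) binds Cdk4 and Cdk6. In the developing retina cyclin D1 is the main D cyclin of dividing progenitors, p27 is raised as cells leave the cycle, and Muller glia express cyclin D3.

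The D cyclins share at their amino end the LxCxE motif, through which they contact the retinoblastoma protein, and the coding sequences that follow are shown to make that shared feature visible. These are codons 1 to 20 of the mouse coding sequences, from GENCODE release M21, 5′ to 3′, with the motif codons in capitals.
Ccnd1: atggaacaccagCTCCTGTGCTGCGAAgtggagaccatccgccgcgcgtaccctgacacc
Ccnd2: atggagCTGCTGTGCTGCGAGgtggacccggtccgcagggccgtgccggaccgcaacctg
Ccnd3: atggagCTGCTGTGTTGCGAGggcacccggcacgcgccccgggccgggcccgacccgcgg
The motif spans codons 5 to 9 in Ccnd1 and codons 3 to 7 in the other two. Over its 15 bases, Ccnd1 and Ccnd2 share 13, Ccnd1 and Ccnd3 share 12, and Ccnd2 and Ccnd3 share 14.

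Cdk4 and Cdk6 are related kinases that meet the cyclin through a helix related to the PSTAIRE helix of Cdk1. The stretch around it is shown for both, since the balance of these kinases, by counts per kb of exon, shifted over the culture. The helix codons are in capitals.
Cdk4: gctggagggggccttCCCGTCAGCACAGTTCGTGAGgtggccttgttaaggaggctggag
Cdk6: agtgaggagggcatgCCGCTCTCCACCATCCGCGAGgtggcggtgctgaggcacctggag
These are codons 45 to 64 of Cdk4 and 50 to 69 of Cdk6, and 13 of the 21 capital bases are the same. Each gene lies at the position given in GENCODE release M21 on build GRCm38, which the abundance tables also use for all 10 genes.

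Library totals over genes lay between 7511837 and 19166442 counts (median 12985662), and all 10 genes were among the 18150 genes tested. Of all reads entered in the counting, 26.9% to 34.9% per library were assigned to genes. Mitochondrial genes held 7.42% to 21.0% of the gene counts. Levels are given as CPM, the usual depth-scaled read count, with library sizes adjusted by edgeR's TMM factors. The labelled cell type was checked against marker lists. All 10 progenitor markers were detected, and their sum was 1301 to 1419 CPM for untreated, 808 to 965 CPM for cone day 35 and 959 to 1381 CPM for rod day 35 libraries. The 8 photoreceptor markers, at 898 to 1213 CPM when untreated, had dropped by day 35 to sums of 11.9 to 35.5 CPM (cone) and 9.38 to 17.1 CPM (rod), so the day 35 cultures went against a reading of their labels as photoreceptors. The 8 Muller glia markers went from 569 to 666 CPM when untreated to 3933 to 4795 CPM (cone day 35) and 4452 to 7244 CPM (rod day 35). The 9 mesenchyme markers summed to 2882 and 3699 CPM in cone day 35 replicates 1 and 3, against 539 CPM in replicate 2. In rod day 12 replicate 2 photoreceptor markers summed to 876 CPM, against 69.7 and 139.9 CPM in its fellows. Microglia markers summed to 16.0 to 80.5 CPM in cone and 1.27 to 1.78 CPM in rod day 35 cultures. The part of these markers in the results was not tested, and in bulk RNA fewer cells of a type and less RNA per cell cannot be told apart.

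Rod priming raised 5 of the 10 genes and cone priming none. The cone and rod groups differed most in these genes at days 0 and 5, and from primed cells to day 35 Ccnd2, Ccnd3 and Cdk6 rose and Cdk4 fell in both conditions. Over that span 57.7% (cone) and 55.6% (rod) of all genes were called. The share of all genes called alike in both conditions was not counted. The criterion for a call was edgeR's quasi-likelihood test with Benjamini-Hochberg adjustment over the 18150 genes, at an adjusted p below 0.05. Rod primed cells had 5 members called against untreated cells, all higher (Ccnd1, Ccnd2, Cdkn1b, Cdkn2c and E2f1), where 10.3% of all genes were called, 6.71% higher and 3.56% lower. The median log2 fold change of the 10 genes was 0.65, against 0 over all genes tested. Cone primed cells had 0 called, where 0% of all genes were called, and 0 members had an unadjusted p under 0.05 (DESeq2 and voom also called 0). In the direct comparison of the primed groups 5 members were lower in cone primed cells (again Ccnd1, Ccnd2, Cdkn1b, Cdkn2c and E2f1), where 7.27% of all genes were called. The 2 comparisons share the rod primed libraries. With rod priming 6 of the 8 Muller glia markers were also called, 5 of them higher, with sums of 569 to 666 CPM untreated and 1189 to 1471 CPM rod primed. Of the 8 neuron markers 1 was called, lower, with sums of 2031 to 2558 CPM and 1606 to 1773 CPM. Of the 10 progenitor markers 6 were called, 4 higher and 2 lower, with sums of 1301 to 1419 CPM and 1488 to 1645 CPM. Their part in the result was not tested.

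**Figure D1:**
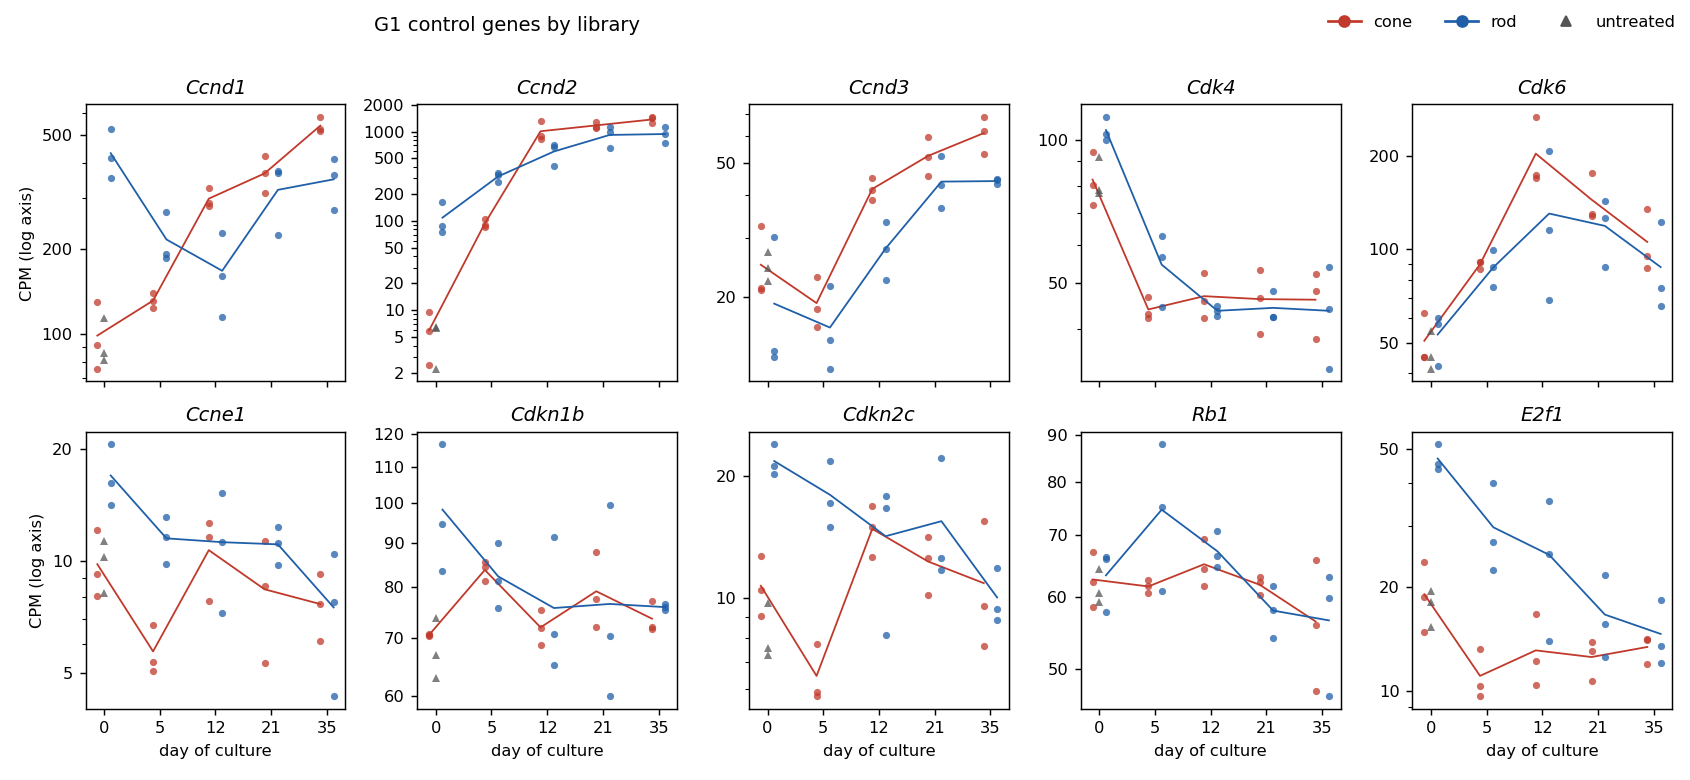
Each panel shows 1 gene, with the level in CPM on a log axis against the day of culture (days evenly spaced, not to scale). Points are libraries, lines join the means of 3 libraries, red is cone, blue is rod and grey triangles are untreated cells. Ccnd2 climbs from 2.41 to 9.46 CPM in cone primed cells to 1238 to 1453 CPM at day 35, while Rb1 stays between 46.7 and 87.9 CPM in every library.

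At day 5, 5 members were lower in cone than in rod cultures (Ccnd1, Ccnd2, Ccne1, Cdkn2c and E2f1), where 9.28% of all genes were called. At day 12, Ccnd1 was higher and E2f1 lower in cone cultures, 2 members where 10.1% of all genes were called. No member was called at day 21, where 9% of all genes were, or at day 35, where 12.3% were. At an unadjusted p under 0.05 the numbers were 0 at day 21 and 1 at day 35 (Ccnd1). With voom and quality weights the numbers were 0 and 1, and with DESeq2 0 on both days. For the average of days 5, 12, 21 and 35, Ccnd3 was higher and Cdkn2c and E2f1 lower in cone cultures, 3 members where 27.8% of all genes were called, 15.6% higher and 12.2% lower. That share of members is near the background. The F test for a change of the cone minus rod difference over the 5 days called 3 members (Ccnd1, Ccnd2 and Cdkn2c), where 9.22% of all genes were called.

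**Figure D2:**
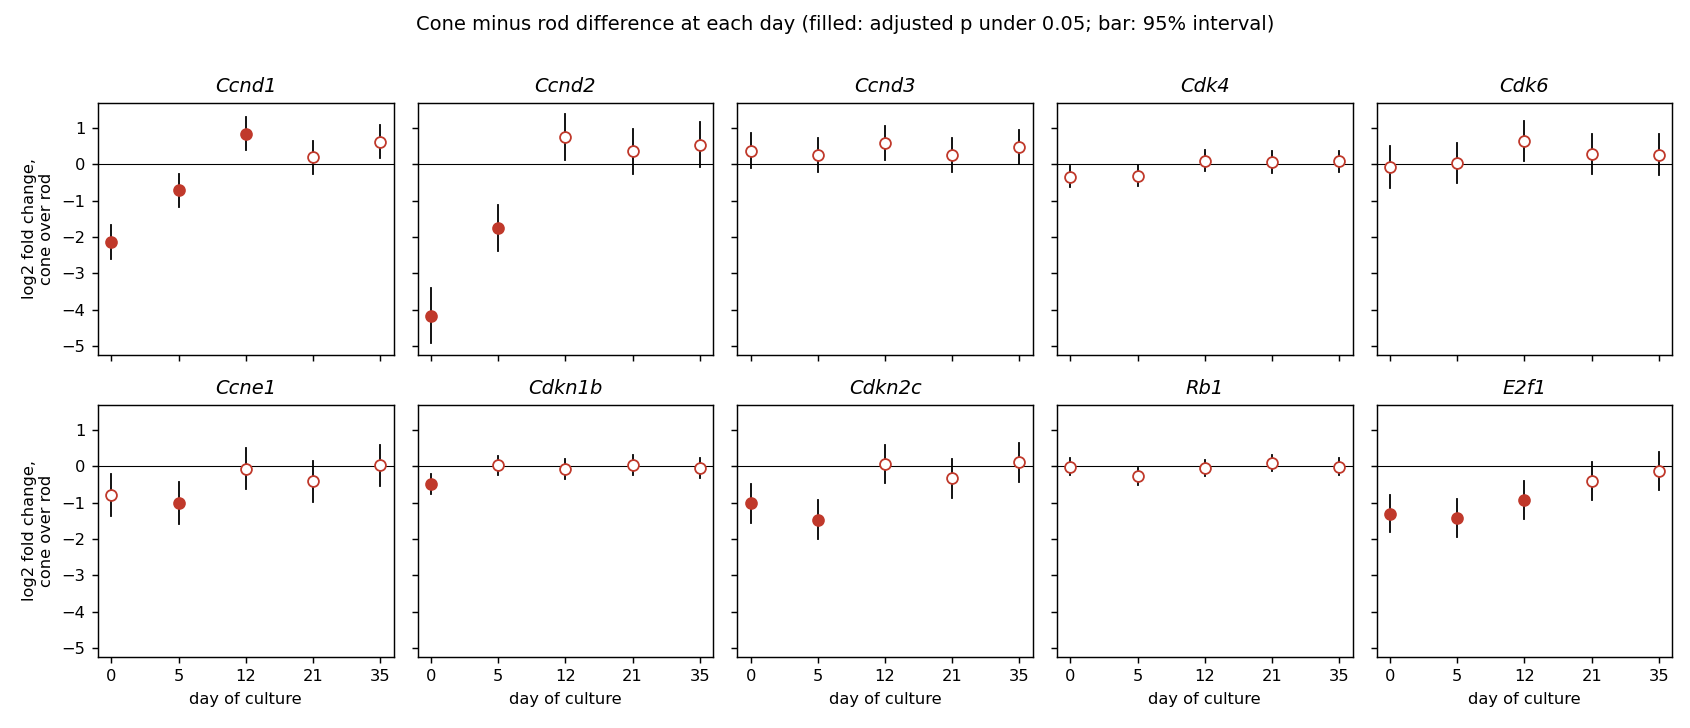
Log2 fold change of cone over rod cultures at each day, from the edgeR fit, with a 95% interval from its standard error; filled points have an adjusted p under 0.05. Ccnd2 runs from -4.17 at day 0 to 0.54 at day 35, and the interval of Cdk6 reaches or crosses 0 on all days but day 12.

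Between days 5 and 12 in cone cultures 6 members rose (Ccnd1, Ccnd2, Ccnd3, Cdk6, Ccne1 and Cdkn2c) and 0 fell. In that step 43.2% of all genes were called, so the count called in either direction is near the background. By direction, 4458 of the 18150 genes were called higher and 3382 lower. The median log2 fold change of the members was 1.02, against 0.03 over all genes tested. Between days 0 and 5 of the cone condition 4 members were called, where 22.3% of all genes were, with Ccnd2 and Cdk6 higher and Cdk4 and E2f1 lower. From day 12 to 21 and from day 21 to 35 the cone cultures had 0 members called, where 3.36% and 0.915% of all genes were called, and 0 and 1 members had an unadjusted p under 0.05. DESeq2 called 0 in both steps, and voom called 0 and 1. In the rod condition 3 members were called from day 0 to 5 (Ccnd2 higher, Ccnd1 and Cdk4 lower), where 17.5% of all genes were. From day 5 to 12, 2 members were higher (Ccnd2 and Ccnd3), where 18.3% of all genes were called. From day 12 to 21 Ccnd1 alone was higher, where 11.2% of all genes were called. From day 21 to 35 there were 0 called, where 1.54% of all genes were, and 1 member had an unadjusted p under 0.05, with 0 called by DESeq2 and by voom.

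Ccnd1 (chromosome 7, 144929931 to 144939925, minus strand) encodes cyclin D1. It stood at 114, 81.0 and 85.9 CPM in untreated cells, 91.9, 129.6 and 75.7 CPM in cone primed cells, and 416, 354 and 528 CPM in rod primed cells. Every rod primed library was above every other day 0 library. In cone cultures it measured 130.5, 124, 139.8 CPM at day 5, then 328, 282, 289 CPM at day 12, then 422, 313, 367 CPM at day 21 and 580, 525, 517 CPM at day 35. The day 12 libraries all lay above those of day 5, and the groups at days 12 and 21 overlapped. In rod cultures it measured 269, 186, 191 CPM at day 5, 226, 115, 160 CPM at day 12, 374, 223, 369 CPM at day 21 and 273, 364, 414 CPM at day 35. The rod condition thus began high, was lowest on average at day 12 and overlapped with its primed cells again at day 35, whereas every cone day 35 library was above every rod day 35 library. The rise with rod priming was 4.63-fold (log2 2.21 ± 0.24 SE, adjusted p 3.65e-07), and cone primed cells were 4.37-fold below rod primed cells (adjusted p 9.49e-07). At day 5 cone cultures were still lower, by a log2 fold change of -0.71 ± 0.23 (adjusted p 0.0488), a call that was lost without any 1 of the 6 libraries (highest adjusted p 0.282, without rod day 5 replicate 1). It was also lost with RLE size factors (adjusted p 0.0639), without mitochondrial and ribosomal RNA genes, with a filter at a mean of 1 CPM and with robust dispersion. At day 12 they were higher, by 0.84 ± 0.23 (adjusted p 0.0175). That call was lost in 4 of 6 leave-outs, those of cone day 12 replicates 1 and 3 and rod day 12 replicates 2 and 3 (highest adjusted p 0.119), and in a fit of the compared groups alone. At day 35 the difference was 0.63 ± 0.23 (adjusted p 0.0737) and the groups did not overlap.

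The changes of Ccnd1 between days differed by condition. In cone cultures it rose 2.28-fold from day 5 to day 12 (adjusted p 0.000162), and from the primed cells to day 35 it rose 5.45-fold (log2 2.45 ± 0.24, adjusted p 1.90e-09). In the rod condition it fell by 1.01 ± 0.23 on the log2 scale from day 0 to day 5 (adjusted p 0.00312) and rose by 0.94 ± 0.23 from day 12 to day 21 (adjusted p 0.00959). The rise was lost without rod day 12 replicate 2 (adjusted p 0.0977) or without rod day 21 replicate 3. From rod primed cells to day 35 the change was -0.30 ± 0.23 (adjusted p 0.263). The difference between the cone and rod changes was 2.75 ± 0.33 on the log2 scale (adjusted p 6.96e-06). LTO1 lies on the opposite strand and shares 1100 exon bases with Ccnd1; it had at most 282 counts in a library, and whether the counting used strand is not given in the sources used here.

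Ccnd2 (chromosome 6, 127125162 to 127152193, minus strand) encodes cyclin D2 and had the widest range of the 10 genes. It stood at 6.27, 2.20 and 6.45 CPM in untreated cells, 5.92, 9.46 and 2.41 CPM in cone primed cells and 75.4, 86.7 and 163 CPM in rod primed cells. All rod primed libraries were above all other day 0 libraries. In cone cultures it reached 105, 85.9, 88.9 CPM at day 5, then 892, 817, 1310 CPM at day 12, then 1293, 1106, 1118 CPM at day 21 and 1453, 1400, 1238 CPM at day 35. In rod cultures it reached 327, 276, 340 CPM at day 5, 673, 408, 712 CPM at day 12, 1120.0, 652, 975 CPM at day 21 and 740, 949, 1124 CPM at day 35. The level was thus higher in rod than in cone libraries at days 0 and 5, and at days 12 and 35 every cone library was above every rod library. Rod primed cells were 22.3-fold above untreated cells (log2 4.48 ± 0.39, adjusted p 1.30e-08), and cone primed cells were 17.9-fold below rod primed cells (adjusted p 4.27e-08). At day 5 cone cultures were 3.36-fold lower (log2 -1.75 ± 0.33, adjusted p 0.000874). The later differences did not pass the test, with 0.75 ± 0.32 at day 12 (adjusted p 0.143), 0.36 ± 0.32 at day 21 (adjusted p 0.561) and 0.54 ± 0.32 at day 35 (adjusted p 0.307).

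Within the cone condition Ccnd2 rose 15.4-fold from day 0 to day 5 (adjusted p 6.51e-08) and 10.8-fold from day 5 to day 12 (adjusted p 2.23e-08). Over the whole cone culture it rose 225-fold (log2 7.82 ± 0.44, adjusted p 8.56e-14), from a start of 0.63 to 145 CPM per kb of exon. In the rod condition it rose 2.89-fold from day 0 to day 5 (adjusted p 0.00171) and 1.90-fold from day 5 to day 12 (adjusted p 0.0427). The latter call was lost in 5 of 6 leave-outs, all but that of rod day 12 replicate 2 (highest adjusted p 0.155), and in a fit of the compared groups alone. From rod primed cells to day 35 it rose 8.63-fold (log2 3.11 ± 0.34, adjusted p 2.23e-08), and the cone change exceeded the rod change by 4.71 ± 0.50 on the log2 scale (adjusted p 1.11e-06). The F test over the 5 days gave an adjusted p of 6.89e-07 for Ccnd2 and 4.47e-06 for Ccnd1.

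Ccnd3 (chromosome 17, 47505051 to 47599691, plus strand) encodes cyclin D3 and was the least abundant D cyclin in 9 of the 11 groups per length of exon. The day 0 means were 24.6 ± 2.45 CPM (SD, n = 3) without treatment, 24.9 ± 6.58 with cone priming and 19.1 ± 9.59 with rod priming, and the 3 groups overlapped. At day 5 it stood at 18.4, 16.2 and 22.8 CPM in cone and 21.6, 12.2 and 14.9 CPM in rod cultures. At day 35 it stood at 68.4, 53.2 and 62.1 CPM in cone and 43.2, 44.9 and 44.4 CPM in rod cultures, with no overlap between them. It rose 2.18-fold from day 5 to day 12 in cone cultures (adjusted p 0.000452) and 1.73-fold in rod cultures (adjusted p 0.0232). The rod call was lost in 4 of 6 leave-outs, kept without rod day 5 replicate 1 or rod day 12 replicate 2 (highest adjusted p 0.145), and was lost in a fit of the compared groups alone. Over the whole culture it rose 2.45-fold in cone (adjusted p 4.73e-05) and 2.29-fold in rod cultures (adjusted p 0.000158), and the changes differed by 0.10 on the log2 scale (95% interval -0.57 to 0.76). No single day separated cone from rod by edgeR's test over all groups. Ccnd3 was called higher in cone at day 0 without rod primed replicate 3, which stood at 30.2 CPM against 13.8 and 13.3 CPM (log2 0.88, adjusted p 0.0285). It was called at day 12 by voom (adjusted p 0.0175) and at day 35 in a fit of the compared groups alone (adjusted p 0.0429). Over the mean of days 5 to 35 cone cultures were higher by 0.39 ± 0.12 (adjusted p 0.0143). The call over the mean of days was lost without replicate 3 of every group (adjusted p 0.140) and without cone day 35 replicates 1 and 3, which had the high mesenchyme markers. Bysl, on the opposite strand, shares 361 exon bases with Ccnd3 and had up to 330 counts in a library, against 102 to 801 for Ccnd3.

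Markers of several cell types moved over the same span as the D cyclins. From cone primed cells to cone day 35 the summed Muller glia markers went from 593 to 732 CPM to 3933 to 4795 CPM, astrocyte markers from 2.10 to 3.39 CPM to 260.0 to 386 CPM, mesenchyme markers from 2.41 to 9.06 CPM to 539 to 3699 CPM and lens markers from 0.31 to 1.13 CPM to 122 to 168 CPM. Neuron markers went from 2029 to 2504 CPM to 213 to 400.5 CPM. From rod primed cells to rod day 35, Muller glia markers went from 1189 to 1471 CPM to 4452 to 7244 CPM, astrocyte markers from 8.95 to 13.9 CPM to 334 to 408.5 CPM, and neuron markers from 1606 to 1773 CPM to 195 to 254 CPM. Mesenchyme markers rose there too, from 8.26 to 23.2 CPM to 280 to 782 CPM, and lens markers from 0.71 to 1.80 CPM to 70.4 to 96.8 CPM. Their part in the changes of the D cyclins was not tested.

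Levels of different genes were compared per length, as CPM per kb of exon model. The summed D cyclin level was 23.2 ± 4.01 CPM per kb (SD, n = 3) without treatment, 24.5 ± 6.96 after cone priming and 105.6 ± 24.3 after rod priming. It reached 267 ± 18.4 in cone and 179 ± 35.6 in rod day 35 cultures. Of that sum 85.9% ± 0.54 (cone primed) and 87.4% ± 2.94 (rod primed) was Ccnd1. At day 35 Ccnd1 held 43.1% ± 1.17 in cone and 41.5% ± 0.60 in rod cultures, and Ccnd2 held 54.3% ± 1.47 and 55.6% ± 0.61. Ccnd3 held 12.3% ± 2.04 in untreated cells, 1.99% ± 0.53 in rod primed cells and 2.62% ± 0.30 in cone day 35 cultures. Thus Ccnd1 led the D cyclins at days 0 and 5 in both conditions, and Ccnd2 led from day 12 on in both.

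**Figure D3:**
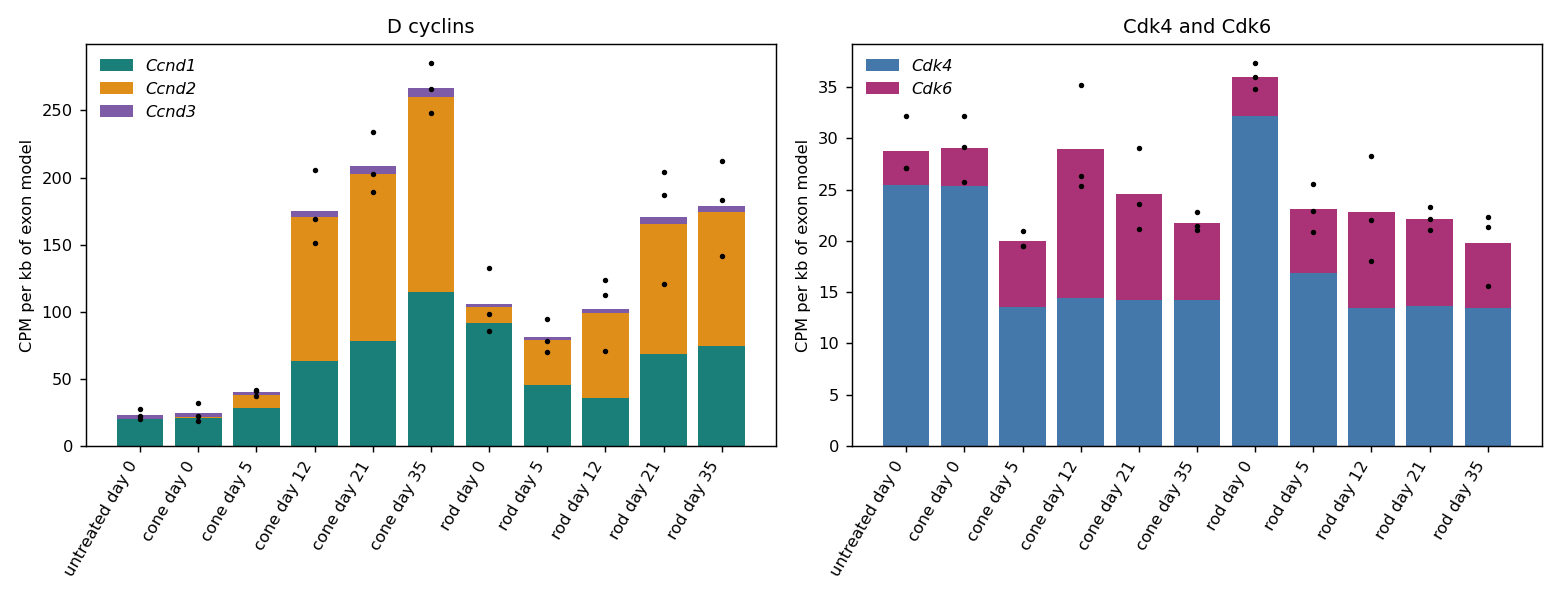
Stacked bars are mean CPM per kb of exon model for the D cyclins (left) and for Cdk4 and Cdk6 (right) in each group of 3 libraries, and black dots are the sums in each library; day 0 bars of cone and rod are primed cells. The D cyclin sum grows from 24.5 in cone primed cells to 267 at day 35, with Ccnd2 as the larger part from day 12, while the kinase sum stays between 15.6 and 37.3 in every library.

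By the TPM in the authors' abundance tables the Ccnd1 share was 85.0% ± 6.48 after cone priming and 78.4% ± 4.25 after rod priming. It was 55.9% ± 5.37 in cone and 57.6% ± 11.8 in rod day 35 cultures, with Ccnd2 at 32.1% ± 6.64 and 32.7% ± 10.7. By TPM Ccnd1 thus stayed ahead of Ccnd2 at day 35, the opposite order to that by counts per kb. The TPM did not follow the counts of these genes. For Cdk4 the TPM of 3 libraries of 1 group differed by a median of 7.54-fold, the counts by 1.24-fold. Ccne1 was listed at 0 TPM in 25 of the 33 libraries, although no library had fewer than 51 counts of it. Across the 33 libraries, which share the day series, Pearson's r of log2 TPM with log2 CPM was 0.15 for Cdk4, -0.12 for Ccnd1 and 0.93 for Ccnd2, as a description. A limma fit on log2(TPM + 1) left called, of the 10 members, only Ccnd2 and Rb1. It called Ccnd2 in both conditions from day 0 to day 5 and from primed cells to day 35, and in cone cultures from day 5 to day 12. It called Rb1 higher at rod day 5 and cone day 35 than in primed cells. The directions that turned are given in the closing section, and the tests below rest on counts.

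Cdk4 (chromosome 10, 127063534 to 127067920, plus strand) encodes the main kinase partner of the D cyclins, and its level fell between day 0 and day 5 in both conditions. The untreated libraries stood at 91.7, 77.4 and 78.4 CPM, the cone primed at 80.2, 94.1 and 73.0 CPM and the rod primed at 99.7, 102.8 and 111.5 CPM. At day 5 it stood at 43.1, 42.3 and 46.7 CPM in cone and 62.7, 44.5 and 56.8 CPM in rod cultures. Neither day 5 group overlapped with its primed cells. The fall was 0.91 ± 0.15 on the log2 scale in cone (log2 fold change -0.91, adjusted p 0.000107) and 0.94 ± 0.15 in rod cultures (log2 fold change -0.94, adjusted p 9.65e-05). From day 5 on all libraries lay between 33.1 and 62.7 CPM, and no later step was called. At day 35 the level was 1.79-fold below the primed cells in cone (adjusted p 2.97e-05) and 2.39-fold below in rod cultures (adjusted p 8.96e-08). Cone and rod differed by 0.42 ± 0.21 in that change (adjusted p 0.262). Every rod primed library lay above every other day 0 library, but the rise with rod priming was not called (log2 0.34 ± 0.15, adjusted p 0.146). Cone minus rod differences were -0.34 ± 0.15 at day 0 (adjusted p 0.177) and -0.31 ± 0.15 at day 5 (adjusted p 0.216). Neither was called by edgeR's test over all groups, and voom called both. Tspan31, on the opposite strand, shares 641 exon bases with Cdk4 and had up to 531 counts in a library.

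Cdk6 (chromosome 5, 3341485 to 3531008, plus strand) encodes the second D cyclin kinase and moved the other way. The untreated libraries stood at 54.5, 45.2 and 41.3 CPM, the cone primed at 62.3, 45.2 and 45.1 CPM and the rod primed at 57.5, 60.2 and 42.1 CPM, all overlapping. In cone cultures it measured 86.6, 90.8, 91.4 CPM at day 5, 170, 173, 267 CPM at day 12, 177, 128, 129.5 CPM at day 21 and 95.2, 135, 87.0 CPM at day 35. The cone level was highest at day 12, and 2 of the 3 day 35 libraries were back near the day 5 range. It rose 1.77-fold from day 0 to day 5 (adjusted p 0.0416) and 2.27-fold from day 5 to day 12 (adjusted p 0.00154). The first of these calls was lost in 5 of 6 leave-outs, all but that of cone primed replicate 1 (highest adjusted p 0.150). In rod cultures the libraries spread widely at day 12, at 207, 68.7 and 116 CPM, and no step between neighbouring days was called. From primed cells to day 35 it was 2.08-fold higher in cone (adjusted p 0.00283) and 1.65-fold higher in rod cultures (adjusted p 0.0357). The rod call was lost without rod primed replicate 1, rod primed replicate 3 or rod day 35 replicate 3 (highest adjusted p 0.307). Cone minus rod differences ranged from -0.07 to 0.64 on the log2 scale over the 5 days, and none was called by edgeR's test. At day 12 the difference was called by voom (adjusted p 0.0107) and, in edgeR, without rod day 12 replicate 1 (log2 1.14, adjusted p 0.00569).

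Per kb of exon, Cdk4 made up 88.4% ± 0.66 of the Cdk4 plus Cdk6 level in untreated cells, 87.4% ± 2.63 after cone priming and 89.4% ± 2.21 after rod priming. It made up 50.3% ± 4.01 in cone and 61.0% ± 12.7 in rod cultures at day 12, and 65.2% ± 8.89 and 68.1% ± 8.90 at day 35. The kinase sum itself was 29.0 ± 3.25 CPM per kb in cone primed cells, 29.0 ± 5.44 in cone cultures at day 12 and 21.8 ± 0.96 at day 35. By TPM the Cdk4 share was 79.1% ± 3.51 in cone primed cells and 49.0% ± 43.0 at cone day 12, a spread too wide to place it. At cone day 35 it was 78.9% ± 18.0. In the rod condition it was 94.4% ± 4.42 in primed cells, 91.6% ± 6.02 at day 12 and 93.0% ± 2.61 at day 35. By TPM the rod share thus showed no fall beyond its spread, unlike the share by counts per kb.

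Ccne1 (chromosome 7, 38097984 to 38107534, minus strand) encodes cyclin E1, which with Cdk2 drives entry into S phase. The untreated libraries stood at 8.19, 10.3 and 11.3 CPM, the cone primed at 8.05, 12.1 and 9.22 CPM and the rod primed at 14.1, 16.2 and 20.6 CPM. At day 5 it stood at 5.35, 6.75 and 5.06 CPM in cone and 11.6, 9.80 and 13.1 CPM in rod cultures. Every cone library lay below every rod library at both days. At day 0 the difference had an adjusted p of 0.1002, and at day 5 cone cultures were 2.01-fold lower (log2 -1.01 ± 0.29, adjusted p 0.0267). The day 0 difference was called by voom and in a fit of the compared groups alone. The day 5 call was lost without cone day 5 replicate 1 or 3 or rod day 5 replicate 1 or 3 (highest adjusted p 0.115). In cone cultures it then rose 1.88-fold to day 12 (adjusted p 0.0130), a call lost without cone day 5 replicate 1 or 3 or cone day 12 replicate 3 (highest adjusted p 0.0822). At day 35 it stood at 7.66 ± 1.56 CPM in cone and 7.50 ± 3.06 CPM in rod cultures. Only the rod change from primed cells was called, at 2.26-fold lower (adjusted p 0.00115), and the cone and rod changes differed by 0.81 ± 0.41 (adjusted p 0.263).

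The inhibitors behaved unlike each other. Cdkn2c (chromosome 4, 109660876 to 109667189, minus strand), the INK4 inhibitor p18, stood at 9.72, 7.27 and 7.54 CPM when untreated, at 9.06, 12.7 and 10.5 CPM when cone primed and at 20.2, 23.9 and 21.1 CPM when rod primed. At day 5 it stood at 5.88, 7.72 and 5.75 CPM in cone and 21.8, 14.9 and 17.2 CPM in rod cultures. Rod libraries were above cone libraries without overlap at both days, and from day 12 on the groups overlapped. Rod priming raised it 2.68-fold (log2 1.42 ± 0.28, adjusted p 0.00111). Cone was below rod 2.01-fold at day 0 (adjusted p 0.0226) and 2.77-fold at day 5 (adjusted p 0.000866). The day 0 call was lost in 4 of 6 leave-outs, kept without cone primed replicate 2 or rod primed replicate 1 (highest adjusted p 0.0935). From day 5 to day 12 it rose 2.29-fold in cone cultures (adjusted p 0.000923), and from primed cells to day 35 it fell 2.16-fold in rod cultures (log2 -1.11, adjusted p 0.00104). The gap between its cone and rod levels varied by day (adjusted p 0.0180). Over the mean of days 5 to 35 its level was lower in cone than in rod cultures (log2 -0.41 ± 0.13, adjusted p 0.0248). Both calls were lost without replicate 1 or without replicate 3 of every group, with highest adjusted p of 0.552 and 0.219.

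Cdkn1b (chromosome 6, 134920401 to 134925513, plus strand), the inhibitor p27, moved little in these cells. The untreated libraries stood at 73.8, 66.9 and 62.9 CPM, the cone primed at 70.7, 70.4 and 70.5 CPM and the rod primed at 117, 94.5 and 83.6 CPM. The rod primed libraries were all above the others. The rise with rod priming was 1.45-fold (log2 0.53 ± 0.14, adjusted p 0.0137), lost without rod primed replicate 1 (adjusted p 0.0932). Cone primed cells were 1.39-fold below rod primed cells (adjusted p 0.0355), a call lost in 5 of 6 leave-outs, all but that of rod primed replicate 3 (highest adjusted p 0.196), and with no filter on low counts. No step between neighbouring days was called in either condition, and the day 35 means were 73.7 ± 3.06 CPM (cone) and 75.9 ± 0.61 CPM (rod). The rod level was then 1.29-fold below its primed cells (adjusted p 0.0252), a call lost without rod primed replicate 1 (adjusted p 0.178).

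Rb1 (chromosome 14, 73183673 to 73325822, minus strand) encodes the retinoblastoma protein, the substrate of the D cyclin kinases. It was called in 0 of the 20 comparisons. Group means ran from 56.4 ± 9.25 CPM in cone day 35 to 74.6 ± 13.5 CPM in rod day 5 cultures, with untreated cells at 61.3 ± 2.70 CPM. The log2 change from primed cells to day 35 was -0.15 in cone (95% interval -0.38 to 0.08) and -0.16 in rod cultures (95% interval -0.39 to 0.07). These intervals hold no change of 1.5-fold or more. The transcript level says nothing of phosphorylation, which sets the activity of the protein. Rcbtb2 and Lpar6 lie on the opposite strand and share 488 and 408 exon bases with Rb1.

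E2f1 (chromosome 2, 154559407 to 154569892, minus strand) encodes an activating E2F that the retinoblastoma protein holds in check. The untreated libraries stood at 19.4, 15.3 and 18.1 CPM, the cone primed at 18.8, 23.6 and 14.9 CPM and the rod primed at 45.4, 44.0 and 51.7 CPM. At day 5 it stood at 9.69, 10.3 and 13.3 CPM in cone and 39.9, 22.4 and 27.1 CPM in rod cultures, and at day 12 at 12.3, 10.4 and 16.8 CPM against 35.5, 14.0 and 24.9 CPM. Rod libraries were above cone libraries without overlap at days 0 and 5, and at day 12 rod replicate 2 fell within the cone range. Rod priming raised it 2.67-fold (log2 1.42 ± 0.27, adjusted p 0.000754). Cone was below rod 2.46-fold at day 0 (adjusted p 0.00242), 2.67-fold at day 5 (adjusted p 0.000958) and 1.88-fold at day 12 (adjusted p 0.0267). The day 12 call was lost without cone day 12 replicate 1 or 2 or rod day 12 replicate 1 or 3 (highest adjusted p 0.172), and in a fit of the compared groups alone. Over the mean of days 5 to 35 cone was lower by a log2 fold change of -0.72 ± 0.13 (adjusted p 0.000176).

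By days 21 and 35 the E2f1 levels met, at 13.4 ± 1.23 CPM in cone and 14.7 ± 3.32 CPM in rod day 35 cultures. In the cone condition the fall took place from day 0 to day 5 (log2 fold change -0.78 ± 0.27, adjusted p 0.0355), a call lost without cone primed replicate 1 or 2 or cone day 5 replicate 1 or 2 (highest adjusted p 0.199). From rod primed cells to day 35 it fell 3.20-fold (log2 -1.68, adjusted p 6.50e-06), against -0.51 ± 0.27 in the cone condition (adjusted p 0.107). The difference between these changes was 1.17 ± 0.38 (adjusted p 0.0639), and the F test over days gave an adjusted p of 0.0660.

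Over the whole culture, Ccnd2, Ccnd3, Cdk6 and Cdk4 moved the same way in both conditions, and the share of all genes that did so was not counted. From primed cells to day 35 the cone condition had 5 members called, 4 higher (Ccnd1, Ccnd2, Ccnd3, Cdk6) and 1 lower (Cdk4), where 57.7% of all genes were called, 31.1% higher and 26.5% lower. The rod condition had 8 called, 3 higher (Ccnd2, Ccnd3, Cdk6) and 5 lower (Cdk4, Ccne1, Cdkn1b, Cdkn2c, E2f1), where 55.6% of all genes were called, 29.4% higher and 26.2% lower. The cone share is near the background. The median log2 fold change of the members was 0.04 in cone and -0.34 in rod cultures, against 0.03 and 0.04 over all genes tested. The cone change differed from the rod change in 2 members, Ccnd1 and Ccnd2, where 5.66% of all genes were called. That test takes in the difference between the primed groups, and neither gene was called between cone and rod at day 35.

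**Figure D4:**
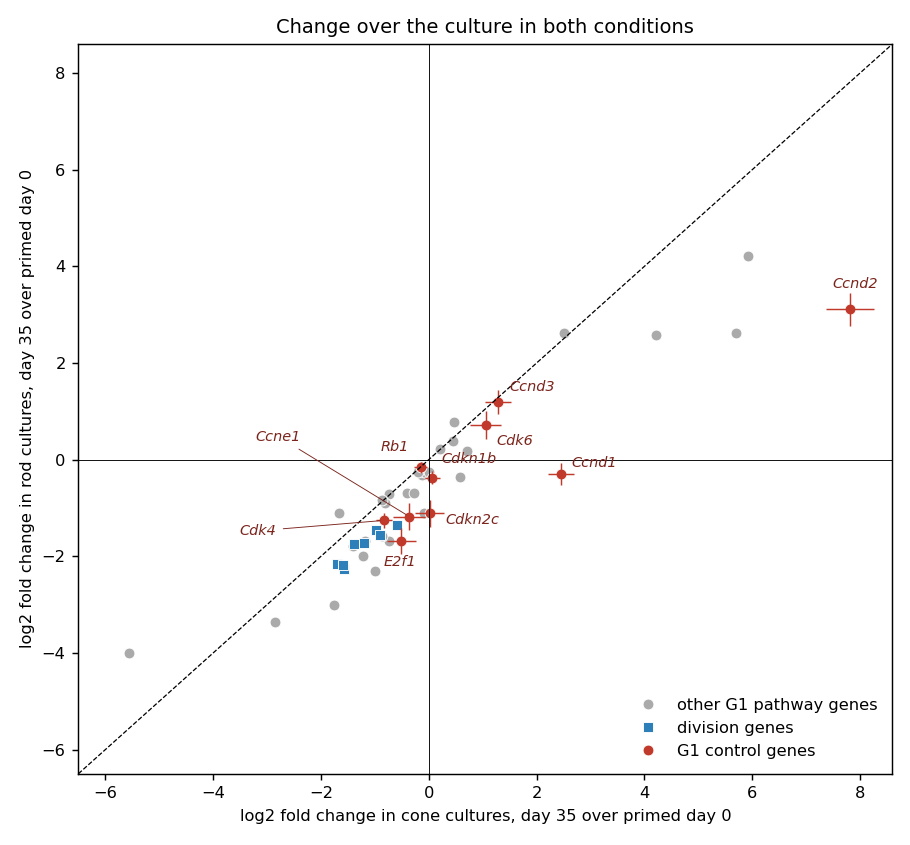
Log2 fold change from primed cells to day 35 in cone (horizontal) against rod cultures (vertical) for the 10 G1 control genes (red, bars are SE), the 30 other G1 pathway genes (grey) and the 8 division genes (blue squares); the dashed line marks equal change. Ccnd2 at 7.82 and 3.11 and Ccnd1 at 2.45 and -0.30 lie below the line, and all division genes lie in the lower left.

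Division genes were read beside these results. The 8 genes Mki67, Top2a, Pcna, Mcm2, Mcm5, Ccna2, Ccnb1 and Cdk1 summed to 843 to 1283 CPM in untreated, 892 to 1536 CPM in cone primed and 1828 to 2300 CPM in rod primed cells. Of the 8, 5 rose with rod priming, where 10.3% of all genes were called, 6.71% of them higher as a share of all genes. At day 5, 7 of the 8 were lower in cone cultures (9.28% of all genes called, 1053 of 18150 lower). The sums were then 590 to 790 CPM in cone and 1443 to 1632 CPM in rod cultures. In cone cultures 7 of the 8 rose from day 5 to day 12, where 43.2% of all genes were called, 4458 of 18150 higher. From primed cells to day 35, 7 of the 8 fell in cone and 8 of the 8 in rod cultures, to sums of 259 to 612 CPM and 405 to 708 CPM, where 26.5% and 26.2% of all genes were called lower. Mki67, the Ki-67 proliferation antigen, was 2.60-fold lower in cone (adjusted p 0.000268) and 3.34-fold lower in rod cultures (adjusted p 1.99e-05). Ccnd1, Ccnd2 and Ccnd3 were thus at their highest cone levels in the group in which this sum was lowest.

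The other 30 genes of the G1 pathway, all of them tested, moved as follows. Rod priming raised 11 and lowered 1 of them, where 6.71% of all genes were called higher and 3.56% lower. The largest rises were in Cdkn1c (p57, log2 2.55 ± 0.34, adjusted p 1.2e-05) and Cdkn2a (log2 2.02 ± 0.47, adjusted p 0.0058), and the fall was in Fbxw7, a ubiquitin ligase subunit that marks cyclin E for decay (log2 -0.69 ± 0.10, adjusted p 6.1e-05). Cdkn1c stood at 77.2, 79.5 and 222 CPM in rod primed and 23.8, 21.3 and 19.8 CPM in untreated cells. Cdkn2a stood at only 1.085, 1.81 and 1.62 CPM in rod primed and 0.26, 0.27 and 0.54 CPM in untreated cells. In the untreated libraries 3 counts made 0.22 to 0.40 CPM before TMM scaling, so its rise started near the floor. Also raised without overlap were Cdk2, E2f6, E2f7, E2f8, Rbl1, Mybl2, Ccne2, Cdc25a and Skp2, with log2 fold changes of 0.47 to 1.24. At day 0, 1 was higher and 6 lower in cone than in rod primed cells, where 7.27% of all genes were called. At day 5, 1 was higher and 7 lower, where 9.28% were. Fbxw7 was the gene higher in cone on both days (log2 0.73 ± 0.10 and 0.58 ± 0.10). Cdkn1c was lower on both (log2 -2.31 ± 0.34 and -1.28 ± 0.33). At day 5 E2f7 and E2f8, repressive E2F factors, were lower by about as much as Cdkn1c, at -1.29 ± 0.34 and -1.28 ± 0.31.

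At day 12, 4 were higher and 0 lower in cone cultures, where 10.1% of all genes were called: Cdkn2b (log2 1.76 ± 0.29), Cdkn2a (1.66 ± 0.34), Cdkn1a (1.57 ± 0.35) and Mnat1 (0.42 ± 0.13). At day 21 Cdkn2a was higher and E2f3 lower, 2 called, where 9% of all genes were. At day 35, Cdkn1a (p21, log2 1.30 ± 0.34, adjusted p 0.012), Cdkn2a and Cdkn2b were higher and Cdkn1c lower (-1.06 ± 0.35), 4 called where 12.3% of all genes were. Cdkn1a stood at 148, 144 and 123.3 CPM in cone and 38.0, 59.5 and 71.2 CPM in rod day 35 cultures. Over the mean of days 5 to 35, 4 were higher and 7 lower, where 15.6% and 12.2% of all genes were.

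Over the whole culture, 8 of the 30 rose and 13 fell in the cone condition, and 6 rose and 16 fell in the rod condition. Of all genes 31.1% rose and 26.5% fell in cone and 29.4% rose and 26.2% fell in rod cultures. The shares of the list that rose were thus not above the background, and the shares that fell were above it. The median log2 fold change of the list was -0.24 in cone and -0.69 in rod cultures, against 0.03 and 0.04 over all genes tested. The largest rises in cone cultures were in the INK4 inhibitors Cdkn2b (log2 5.93 ± 0.38) and Cdkn2a (5.69 ± 0.42), both under 1 CPM in every cone primed library. The largest falls there were in Mycn (-5.56 ± 0.58), a growth regulator of progenitors, and E2f2 (-2.84 ± 0.49). In rod cultures the largest rises were in Cdkn2b (4.21 ± 0.35) and Myc (2.62 ± 0.36) and the largest falls in Mycn (-4.00 ± 0.52) and E2f2 (-3.36 ± 0.48). The cone and rod changes of Cdkn2a differed by 3.08 ± 0.56 (adjusted p 0.0011), and those of Fbxw7 by -0.56 ± 0.15 (adjusted p 0.022).

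Across the 11 group means, which share the day series, the gene most like each member was found by Pearson's r of log2 CPM, as a description. For Ccnd1 it was Pgm1 (r 0.94), for Ccnd2 Cdc42ep1 (1.00), for Ccnd3 Ccdc85b (0.99), for Cdk4 Hist2h2bb (0.99) and for Cdk6 Kcnj12 (0.96). For Ccne1 it was Nucks1 (0.96), for Cdkn1b Tpmt (0.85), for Cdkn2c Tcf19 (0.98), for Rb1 Hip1r (0.93) and for E2f1 Cmc2 (0.95). Among the members themselves, Ccne1 went with Cdkn2c and with E2f1 (r 0.86 each), Ccnd2 went with Cdk6 (0.83), and Cdk4 and Cdk6 ran against each other (-0.81).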

How the data were processed

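Total RNA had been sequenced from 33 libraries (Takara low input kits, per the labels' protocols). The unnormalised read counts per gene, and the FPKM and TPM, were deposited by the authors; the submitters' processing notes name HISAT2, StringTie, HTSeq and GRCm38, with no versions, and the strand setting and annotation are not given in the sources used here. Counts were filtered with filterByExpr (minimum count 10, leaving 18150 genes), scaled by TMM and fitted in 1 quasi-likelihood model of 11 groups (edgeR 4.0.16, R 4.3.3), giving 20 comparisons with SE and 95% intervals from that fit. Exon models and coding sequences came from GENCODE M21. Counting intervals are not given, since reads had no molecular identifiers. Alternatives (limma 3.58.1, DESeq2 1.42.0 and others) are given in the closing section. The steps were tested on simulated counts. Levels per kb came from counts because TPM did not follow them. Members and lists were chosen with earlier results of these data known. All 10 members are named; of 30 other G1 pathway genes, those called without overlap between groups and the 2 largest rises and falls; and per member the gene with the highest Pearson r over groups (mean log2 CPM of at least 1, no Gm-number or Rik symbol). Library batches are not named in the labels.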

Additional observations from a re-analysis of the deposited data

Results flagged for a closer look

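The change over the culture differed between the cone and rod conditions in 2 genes, by the test of the difference itself. For Ccnd1 the adjusted p of that difference was 6.96e-06, and for Ccnd2 it was 1.11e-06. This test sets the cone minus rod difference at day 35 against that at day 0, so it reuses the day 0 result. On the log2 scale Ccnd1 stood at -2.13 at day 0 and 0.63 at day 35, and Ccnd2 at -4.17 and 0.54. Neither gene was called between cone and rod at day 35. The cone minus rod difference also changed with the day, by the F test over the 5 days, in Ccnd1 (adjusted p 4.47e-06), Ccnd2 (adjusted p 6.89e-07) and Cdkn2c (adjusted p 0.0180). The call for Cdkn2c was lost without replicate 1 or without replicate 3 of every group (adjusted p 0.552 without replicate 3).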

How the results depend on the processing

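Counts of the 10 genes called are compared here, and a change of sign is counted only where a value was called. DESeq2, other scaling (RLE, or leaving out mitochondrial and ribosomal RNA genes), other filters and robust dispersion kept the counts within 1.5 times of those reported (the call of Ccnd1 at day 5 was lost in 4 of these settings, and that of Cdkn1b at day 0 with no filter), except that DESeq2 called 4 members for the cone change minus the rod change. Voom with quality weights called 4 members between cone and rod at day 12 and 1 at day 35, 8 with rod priming, 7 from cone day 0 to 5, 1 from cone day 21 to 35, and 5, 4 and 5 in the rod steps to days 5, 12 and 21. It called 4 for the difference of the changes and 7 in the F test over days. A fit of the compared groups alone called 0 between cone and rod at day 12 and 2 at day 35, 7 from cone day 0 to 5, and 6, 0 and 0 in the rod steps to days 5, 12 and 21. The causes were not tested.

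With log2(TPM + 1) in limma the count was 0 between cone and rod at days 0, 5 and 12 and over their mean, 0 with rod priming, 0 in the rod steps to days 12 and 21, and 0 in both tests of a difference. It was 1 in the cone steps to days 5 and 12, and 2 in cone and 1 in rod cultures from primed cells to day 35. Directions turned for Ccnd1 between cone and rod at days 0 (log2 0.078) and 5 (0.016), with rod priming (-0.20), from cone day 5 to 12 (-0.47) and from rod day 0 to 5 (0.82). They turned for Cdkn2c between cone and rod at day 0 (0.22), E2f1 from cone day 0 to 5 (0.13), and Ccnd3 (-0.26) and Cdk6 (-0.62) from cone day 5 to 12. From primed cells to day 35 they turned for Cdk6 in cone (-1.14) and rod (-0.77), Ccnd3 in rod (-0.27) and Rb1 in cone cultures (1.15). Ccne1 was listed at 0 TPM in all cone and rod day 5 libraries, so its TPM gave no direction there. The cause was not tested. Over all libraries the shares by TPM were 64.9% Ccnd1, 20.4% Ccnd2 and 14.8% Ccnd3, and by counts per kb 56.2%, 39.2% and 4.63%.

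Without 1 library at a time the count called between cone and rod ran from 3 to 5 at day 0, 3 to 4 at day 5, 0 to 2 at day 12 and 1 to 3 over the mean of days. It ran from 2 to 3 from cone day 0 to 5, 0 to 3 from rod day 5 to 12 and 0 to 2 from rod day 12 to 21. For the mean of days, 1 replicate number was left out of every group at a time. Chosen after seeing the data, leaving out rod day 12 replicate 2 gave 4 over the mean of days and 4 in the F test, and leaving out cone day 35 replicates 1 and 3 gave 0 at day 35, 2 over the mean of days and 5 from cone primed cells to day 35. The replicate numbers were tested for pairing, and in 0 of 17 comparisons of 2 groups did all 3 pairs correlate above 0.1. Single pairs correlated between -0.226 and 0.513, so this check does not settle whether libraries of the same number belong together. With the number as a replicate block the count was 5 from cone day 0 to 5, 4 from rod day 0 to 5, 3 for the difference of the changes and 4 in the F test, and as reported elsewhere. With 3 libraries a group, small changes in the least abundant members, such as Ccne1 at 51 to 229 counts a library, may have been missed.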
